A study of Homo sapiens with 4 samples.

Results

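The 4 genes of the nuclear factor I (NFI) family, NFIA, NFIB, NFIC and NFIX, were examined among 20033 protein-coding genes for open chromatin in LNCaP cells and in enzalutamide-resistant cells derived from them. For each gene, every ATAC-seq summit inside the gene or within 50 kb of either end was taken, and the groups were compared by whether a summit was listed and by its rank within its own library. The family was chosen by earlier results on these same libraries, because a strong region listed only in the resistant cells lies 15.3 kb before NFIC. Presence and rank of the members were therefore used in the choice, and all their values are given as descriptions without a test. The 4 windows held 124 and 104 summits in LNCaP replicates 1 and 2, and 101 and 62 summits in LNCaP-resistance replicates 1 and 2.

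ATAC-seq uses a transposase that inserts sequencing adapters into accessible DNA, and a summit is the highest point of a peak of such insertions. LNCaP is an androgen-sensitive human prostate cancer cell line, labelled WT in genotype. The LNCaP-resistance cells descend from LNCaP, carry the genotype label resistance cells and were treated with enzalutamide, an antiandrogen drug. The study derived its resistant sublines by raising the drug stepwise after adaptation to hormone-depleted serum, and whether a subline is 1 clone is not stated in the sources used here. Each group had 2 libraries whose labels give the repeat number as a batch. Nothing in the labels says that the repeats came from separate cultures, so the spread between them may be technical. The lists held 117245, 107344, 70866 and 45618 summits in the same order of libraries, and they contain no read counts, so the depth is unknown. A missing summit therefore means only that none passed the authors' peak caller, and the 2 resistant lists were also the 2 shortest. At promoters, 6 of 7 luminal prostate genes had a summit in at least 1 library, and KLK3 had none. KRT8 had one only in LNCaP replicate 2, and KRT18 had none in LNCaP-resistance replicate 2. Of 6 genes of other cell types 5 had none, COL1A2 being the exception. Neuroendocrine genes had a promoter summit in 5 of 6 cases, in both groups. Among all 20033 protein-coding genes, 14989 had one in at least 1 library, so a promoter summit alone says little about cell identity.

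NFI proteins are sequence-specific DNA-binding factors that bind as dimers to a palindrome built from the half-site TTGGC and its complement GCCAA, and they bind single half-sites more weakly. The 4 genes encode closely related proteins with a conserved DNA-binding domain, and each gene gives rise to several isoforms. In prostate cells NFI factors are known as partners of the pioneer factor FOXA1 at androgen-responsive enhancers. NFIA and NFIB are also known for roles in the development of glia and lung, NFIC in the formation of tooth roots, and NFIX in muscle and brain development.

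The members lie on 3 chromosomes of GRCh38 and differ in size. NFIA spans chr1:61077227-61462788 on the plus strand over 385.6 kb. NFIB spans chr9:14081843-14532077 on the minus strand over 450.2 kb. NFIC spans chr19:3359630-3469217 and NFIX spans chr19:12995475-13098796, both on the plus strand, over 109.6 kb and 103.3 kb. RefSeq gave 3 transcription starts for NFIA, 10 for NFIB, 1 for NFIC and 5 for NFIX.

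The 250 bases before 1 start of each gene are shown because the members' promoters differed in whether any library had a summit near them. For NFIA, NFIC and NFIX the start is the first one of the gene, and for NFIB it is the second, which held the strongest promoter summit of the family. Capitals mark the NFI half-site TTGGC or GCCAA, searched on both strands. The sequences are from RefSeq on GRCh38.p14 and are written 5′ to 3′ along the gene's own strand. They lie at chr1:61076977-61077226 (plus), chr9:14322388-14322637 (minus), chr19:3359380-3359629 (plus) and chr19:12995225-12995474 (plus).
NFIA start 1: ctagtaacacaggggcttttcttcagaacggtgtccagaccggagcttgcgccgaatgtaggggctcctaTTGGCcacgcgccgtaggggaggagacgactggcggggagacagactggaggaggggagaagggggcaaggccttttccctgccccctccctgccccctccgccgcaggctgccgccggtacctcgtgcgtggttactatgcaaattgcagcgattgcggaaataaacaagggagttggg
NFIB start 2: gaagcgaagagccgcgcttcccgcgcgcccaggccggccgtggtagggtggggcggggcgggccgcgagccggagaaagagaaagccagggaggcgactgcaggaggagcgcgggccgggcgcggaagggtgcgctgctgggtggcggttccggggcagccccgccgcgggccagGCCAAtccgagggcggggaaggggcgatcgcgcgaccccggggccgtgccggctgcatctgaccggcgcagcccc
NFIC start 1: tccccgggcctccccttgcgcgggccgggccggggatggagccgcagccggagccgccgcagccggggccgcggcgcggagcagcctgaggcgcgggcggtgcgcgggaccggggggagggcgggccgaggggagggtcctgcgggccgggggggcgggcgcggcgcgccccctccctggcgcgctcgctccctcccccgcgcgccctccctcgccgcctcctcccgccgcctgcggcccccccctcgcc
NFIX start 1: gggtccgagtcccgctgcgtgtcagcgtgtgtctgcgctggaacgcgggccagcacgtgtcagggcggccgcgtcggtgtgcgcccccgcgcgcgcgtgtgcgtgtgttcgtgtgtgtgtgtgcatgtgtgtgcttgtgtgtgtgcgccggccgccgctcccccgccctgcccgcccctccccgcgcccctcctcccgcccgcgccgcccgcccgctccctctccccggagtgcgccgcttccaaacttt

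The NFIA sequence holds 1 half-site that begins 180 bases before the start, and the NFIB sequence holds 1 that begins 75 bases before it. The NFIC and NFIX sequences hold no half-site. Over all 19 starts of the family, 9 had an NFI half-site in their 250 bases, against 41.7% of 22048 promoters of the same length. The palindrome, TTGGC and GCCAA with 5 bases between them, was in 0 of 19 and in 0.0272% of all promoters. The half-site of the androgen response element, AGAACA, was in 3 of 19, against 9.86% of all, and the forkhead motif TGTTTAC was in 0 of 19, against 2.45% of all. These matches describe letters and not binding, and several of the 19 windows overlap each other. The NFIC sequence had a GC content of 87.2% and 41 CpG dinucleotides, the NFIX sequence 74.8% and 37, the NFIB sequence 78.4% and 36, and the NFIA sequence 62.0% and 17. The medians over all promoters were 62.0% and 16.

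Fewer summits were listed at each member in the resistant cells than in LNCaP cells when the 2 libraries of each were pooled. NFIA had 42 and 34 summits in LNCaP against 27 and 20 in LNCaP-resistance. NFIB had 28 and 19 against 23 and 12. NFIC had 24 and 22 against 19 and 12.
Both resistant libraries were below both LNCaP libraries at NFIA and NFIC, whereas the groups overlapped at NFIB. NFIX had 30 and 29 summits against 32 and 18, so its groups overlapped as well. The ratio of resistant to LNCaP summits was 0.618 at NFIA, 0.745 at NFIB, 0.674 at NFIC and 0.847 at NFIX.
The ratio over the 4 windows was 0.715, and within repeat numbers it was 0.815 for replicates 1 and 0.596 for replicates 2. The ratio over all summits of the libraries was lower, at 0.518, with 0.604 and 0.425 within repeat numbers. Among 15928 protein-coding gene windows with a mean of at least 5 LNCaP summits, the median ratio was 0.615, with an interquartile range of 0.455 to 0.786. Of those windows, 50.5% had a lower ratio than NFIA, 69.6% lower than NFIB, 59.1% lower than NFIC and 82.1% lower than NFIX.

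Scaled to the length of each list, the direction turned. Per 10000 summits of its own library, NFIX held 2.56 and 2.70 in LNCaP and 4.52 and 3.95 in LNCaP-resistance. NFIA held 3.59 and 3.17 against 3.82 and 4.39, NFIB 2.39 and 1.77 against 3.25 and 2.63, and NFIC 2.05 and 2.05 against 2.69 and 2.63. Both resistant libraries lay above both LNCaP libraries at all 4 genes on this scale, as they did in 48.3% of the 15928 gene windows. Within a repeat number, the scaling raises the ratio of every gene by the same factor. The surroundings differed between members as well. Within 5 Mb on either side of the gene the ratio was 0.384 for NFIA and 0.540 for NFIB, below the value at the gene. It was 0.792 for NFIC and 0.781 for NFIX, and all of chromosome 19 had a ratio of 0.783, against 0.551 for chromosome 1 and 0.575 for chromosome 9.

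**Figure D1:**
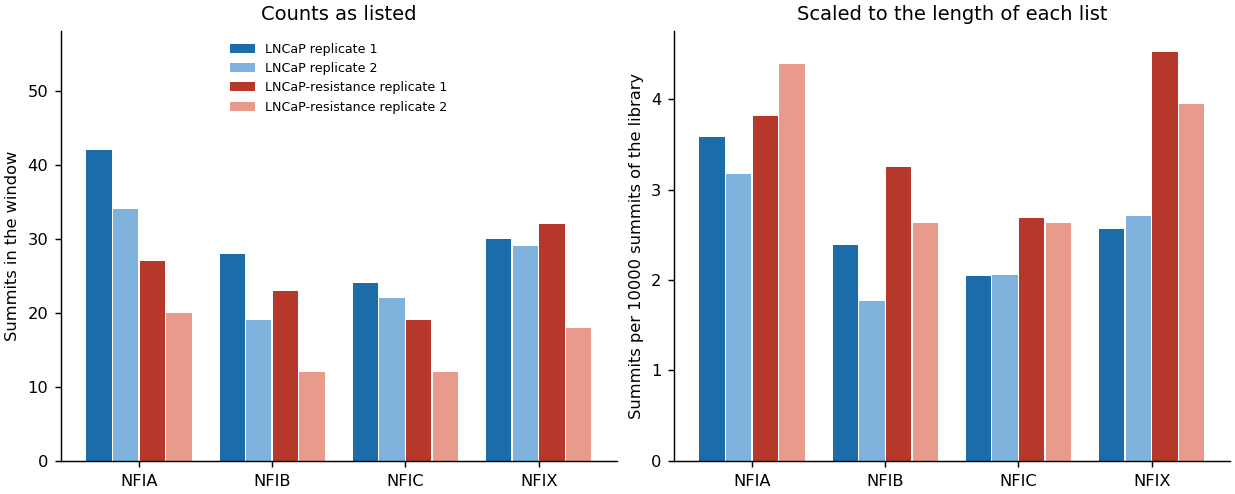
Number of summits in the window of each NFI gene, 1 bar per library (left), and the same number per 10000 summits of that library (right). As listed, NFIA has 42 and 34 against 27 and 20, whereas per 10000 summits both LNCaP-resistance bars are above both LNCaP bars at each of the 4 genes.

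To compare positions, a window of 250 bp to each side was laid around every summit, and windows that touched across the 4 libraries were joined as 1 region. It was shared when all 4 libraries had a summit in it, LNCaP-specific when both LNCaP libraries and neither resistant library did, and resistance-specific in the reverse case. The 4 windows held 147 of the 150917 regions. Of these 43 were shared, or 29.3%, against 21.1% of all regions. There were 22 LNCaP-specific regions, or 15.0%, against 27.5% of all regions, and 7 resistance-specific regions, or 4.76%, against 3.84%. The other 75 regions had summits in another combination of libraries, most often in LNCaP replicate 1 alone (21 regions) or in both LNCaP libraries and LNCaP-resistance replicate 1 (20 regions). These shares come from the contrast that chose the family, and nothing is read from their distance to the background.

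The members divided these regions unevenly. NFIA had 13 shared, 10 LNCaP-specific and 1 resistance-specific region, and 9 of the 10 LNCaP-specific regions were inside the gene. NFIB had 6, 4 and 3, and all 3 resistance-specific regions were inside the gene. NFIC had 9, 4 and 3, with 1 resistance-specific region each before, inside and after the gene. NFIX had 15 shared and 4 LNCaP-specific regions and no resistance-specific one. Over whole chromosomes the share of LNCaP-specific regions was 15.3% on chromosome 19, 25.8% on chromosome 1 and 25.01% on chromosome 9.

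**Figure D2:**
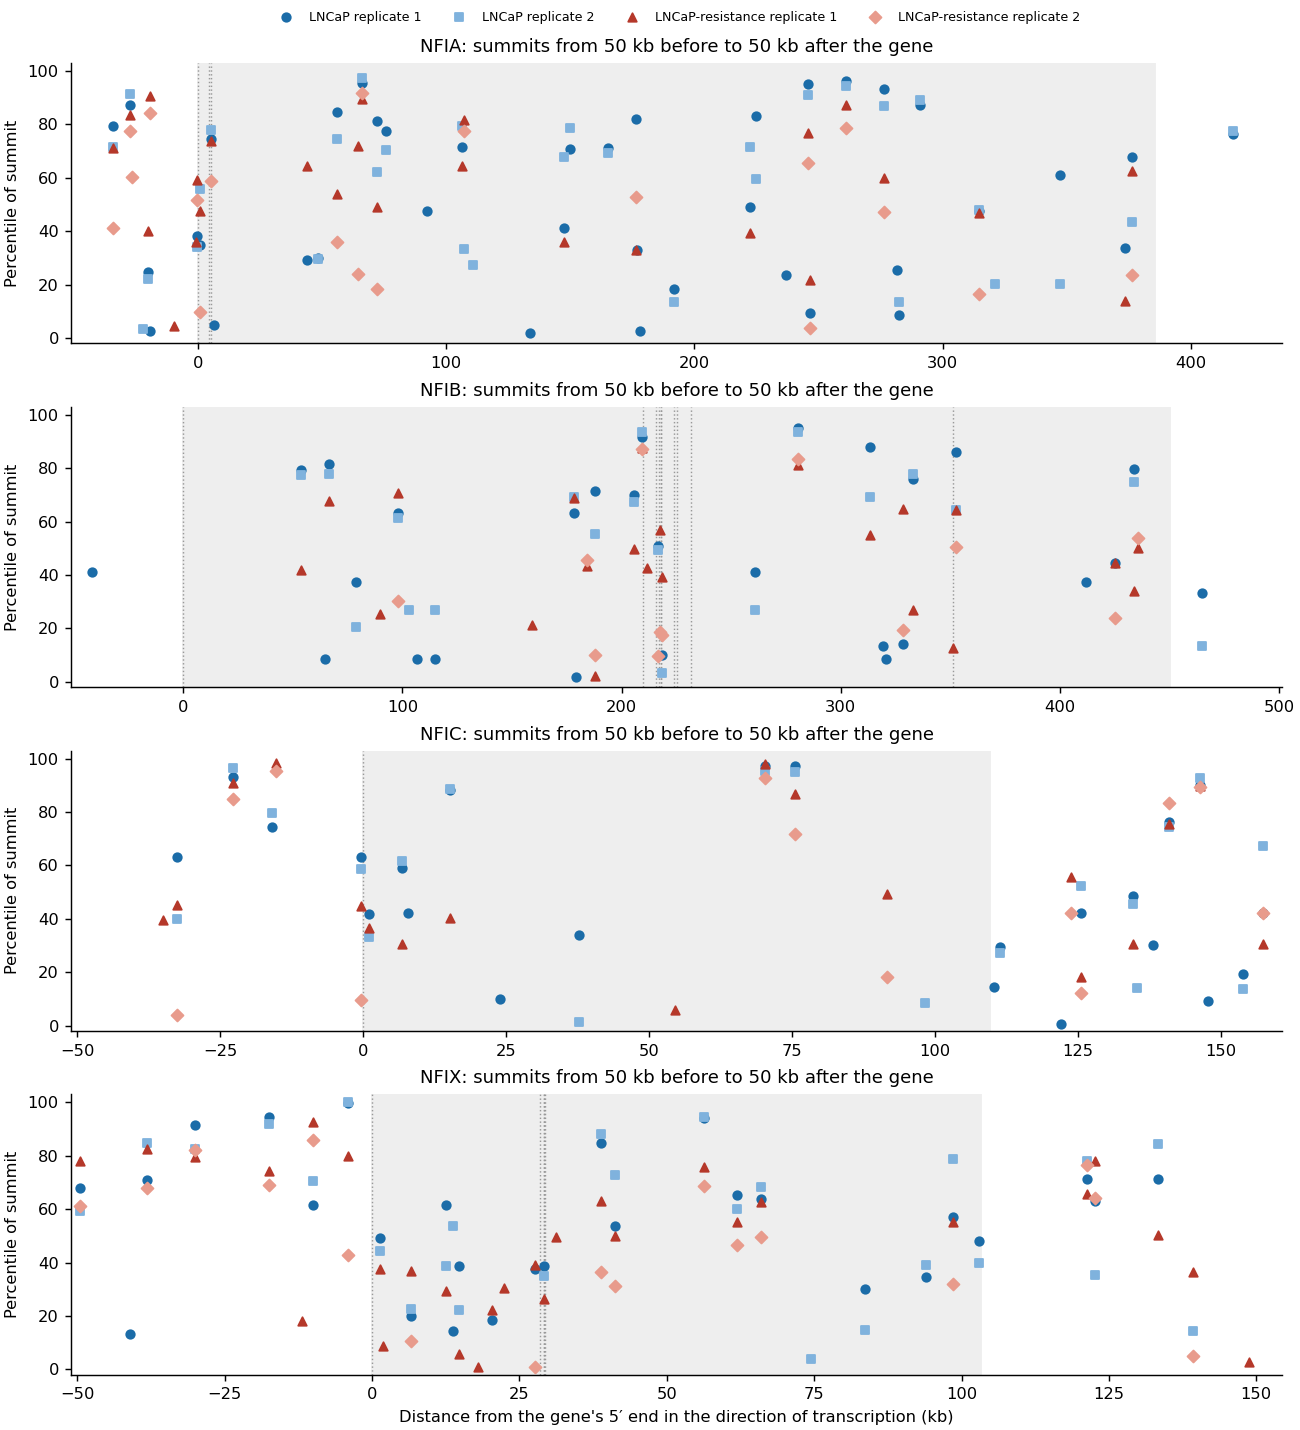
Percentile of each summit among all summits of its library (vertical axis) by the distance of its region from the 5′ end of the gene (kb, along transcription). Grey marks the gene, dotted lines mark annotated starts, and each point is 1 library. At NFIC the LNCaP-resistance points at 98.3 and 95.5 stand 15.3 kb before the gene with no LNCaP point there, and at NFIX the LNCaP points at 99.7 and 99.9 stand 4.0 kb before it.

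A summit's strength was expressed as its percentile, which is the percentage of summits in that list scoring no higher. The strongest region of the family that was listed only in resistant cells was the one before NFIC, at chr19:3344073-3344582, inside no other annotated gene. Its summits stood at 98.3 and 95.5 in LNCaP-resistance replicates 1 and 2, and neither LNCaP library listed a summit there. It ranked 1222 from the top of the first list and 2068 from the top of the second, and it was 2 in order of mean percentile among the 5793 resistance-specific regions of the genome. In the resistant lists, 7073 and 4559 regions held a summit of the strongest 10%. Of these, 139 (1.97%) and 33 (0.724%) had no summit in either LNCaP library. The 4 windows held 5 and 3 such strong regions, and only the one before NFIC lacked both LNCaP libraries. In the LNCaP lists, 13 and 13 regions of the windows were that strong. Of them 0 lacked a summit in both resistant libraries, against 17.1% and 16.1% over all regions.

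Directly beside it lay a region of the opposite kind. At chr19:3343408-3343913, 16.0 kb before NFIC, both LNCaP libraries had a summit, at percentiles 74.3 and 79.7, and neither resistant library did. The LNCaP summits were 660 to 674 bp from the resistant ones, and 159 bp separated the widened regions. The position listed as open thus differed by less than 1 kb between the groups, while the next shared region farther from the gene, 22.7 kb before it, was listed at 92.9, 96.4, 90.9 and 84.8 in the 4 libraries.

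**Figure D3:**
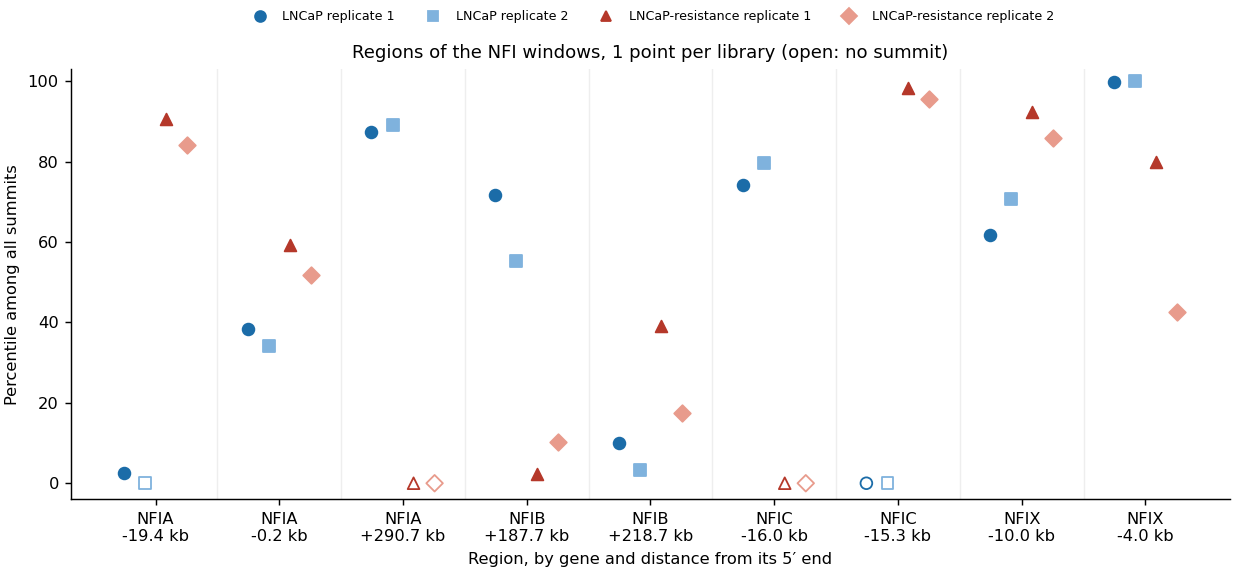
Percentile among all summits of the library for 9 regions of the NFI windows, 1 point per library, with open points at 0 where no summit was listed. The pair 16.0 and 15.3 kb before NFIC shows opposite groups without a summit, and the pair 10.0 and 4.0 kb before NFIX shows opposite orders of the groups.

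Inside NFIC the strongest shared region, 70.2 kb from the start, stood at 97.1 and 95.3 in LNCaP against 97.9 and 92.7 in LNCaP-resistance, so the groups overlapped. A second strong region 75.6 kb from the start was at 97.0 and 95.0 against 86.9 and 71.7, with both resistant libraries lower. On this scale no shared region of the NFIC window had both resistant libraries above both LNCaP libraries. The largest difference of this window apart from the promoter, a change of -32.1, was 125.5 kb from the start and beyond the gene's end, at 42.3 and 52.4 against 18.4 and 12.1. The other resistance-specific regions of the window were weaker than the one before the gene. One lay 91.6 kb from the start, at 49.3 and 18.2, and the other lay at the start of SMIM44, at 55.8 and 42.2.

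Before NFIX, 2 shared regions differed between the groups in opposite directions. The region 4.0 kb before the gene, at chr19:12991185-12991725, stood at 99.7 and 99.9 in LNCaP, where it ranked 349 and 63 from the top of the lists. It was at 80.0 and 42.7 in LNCaP-resistance, a change in the mean of -38.5 with a pooled SD of 18.7 (n = 2 and 2). The change was -19.7 between replicates 1 and -57.2 between replicates 2, so the direction was alike and the size was not.
The region 10.0 kb before the gene, at chr19:12985160-12985697, was at 61.7 and 70.7 in LNCaP and at 92.4 and 85.9 in LNCaP-resistance. Its mean was higher by 23.0 in LNCaP-resistance with a pooled SD of 5.56, and by 30.7 and 15.2 within repeat numbers. In neither region did the groups overlap. Another region that was higher in both resistant libraries, by 21.8, was at the start of the neighbouring gene NACC1, at 63.1 and 35.2 against 77.9 and 64.0. Inside NFIX, 38.8 kb from the first start, a region was at 84.7 and 88.0 in LNCaP against 63.1 and 36.4.

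At NFIA a region beside the first start had higher percentiles in the resistant libraries, and several intragenic regions had lower ones. The shared region 0.2 kb before the first start stood at 38.4 and 34.2 in LNCaP against 59.2 and 51.9 in LNCaP-resistance, a change of 19.2 with a pooled SD of 4.20. The strongest shared region, 65.9 kb into the gene, was at 95.6 and 97.5 against 89.4 and 91.6. The region 276.3 kb into the gene was at 93.1 and 86.9 against 60.0 and 47.0, a change of -36.5.
The largest difference downwards, a change of -38.0, was 72.3 kb into the gene, at 81.1 and 62.4 against 49.0 and 18.5. All 3 intragenic regions had both resistant libraries below both LNCaP libraries. The strongest LNCaP-specific region of NFIA, 290.7 kb into the gene at chr1:61367649-61368814, was at 87.3 and 89.2. The single resistance-specific region, 64.6 kb into the gene, was at 71.9 and 24.1.
One further region, of those in none of the 3 classes, was singled out after its values were seen. It lies 19.4 kb before NFIA at chr1:61057507-61058060. Its summits were at 90.6 and 84.2 in the resistant libraries, at 2.49 in LNCaP replicate 1 and absent from LNCaP replicate 2. The adjoining region, 20.1 kb before NFIA, held summits of both LNCaP libraries, at 24.6 and 21.9, and of LNCaP-resistance replicate 1, at 40.2. A region 107.1 kb into NFIA had a similar pattern, at 81.8 and 77.7 in the resistant libraries. It was at 33.4 in LNCaP replicate 2 and absent from LNCaP replicate 1.

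NFIB had no summit within 1 kb of its first annotated start, and in the 50 kb before the gene only 1 region. That region had a single summit, in LNCaP replicate 1 at percentile 41.1. The strongest shared region of the gene by mean percentile lay 209.5 kb into it, beside its second start, at 91.5 and 93.4 in LNCaP and 87.4 and 87.3 in LNCaP-resistance. Both resistant libraries were lower there, by 5.15 on average.
The region 187.7 kb into the gene, at chr9:14343979-14344708 beside the start of the antisense gene NFIB-AS1, was at 71.6 and 55.3 in LNCaP and at 2.26 and 10.2 in LNCaP-resistance. Its change of -57.2 was the largest of the 43 shared regions, and 2.30% of all shared regions changed by as much or more in that direction. Near it, 184.2 kb into the gene and also beside a start of NFIB-AS1, a resistance-specific region was at 43.3 and 45.7. ATAC-seq does not use strand, so accessibility of NFIB cannot be told apart from that of its antisense gene.
The one shared NFIB region with both resistant libraries higher was 218.7 kb into the gene, near 2 of its starts, at 9.94 and 3.24 against 39.2 and 17.4. A resistance-specific region lay 217.4 kb into the gene, near the fourth start, at 56.7 and 18.7. The strongest resistance-specific NFIB region, 435.6 kb into the gene, was at 49.97 and 53.8. A shared region 98.1 kb into the gene, at 63.0, 61.5, 70.9 and 30.3, holds the histidine tRNA gene TRH-GTG1-6.

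Over the 43 shared regions of the family, both LNCaP libraries were above both resistant libraries in 29, or 67.4%, against 41.8% of all 31833 shared regions. Both resistant libraries were above in 4, or 9.30%, against 17.7% of all, and the groups overlapped in 10. The median change was -12.2 percentile points, against -4.65 over all shared regions. The 4 lists differ in length, so percentiles were also taken among the shared regions alone, which are equal in number in every library.
On that scale both LNCaP libraries were above in 14 regions, or 32.6%, against 30.0% of all shared regions. Both resistant libraries were above in 6, or 14.0%, against 35.3%, and 23 overlapped. The median change was then -5.00, against 1.53 over all shared regions. The changes 4.0 and 10.0 kb before NFIX were larger on this scale, at -54.0 and 48.8. That of the NFIA region 0.2 kb before the start was 24.9, and that of the NFIB region 187.7 kb into the gene was -28.4. The groups did not overlap in any of these 4. At NFIC the region at the start of DOHH was higher by 18.4 on this scale, with both resistant libraries above both LNCaP libraries.

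**Figure D4:**
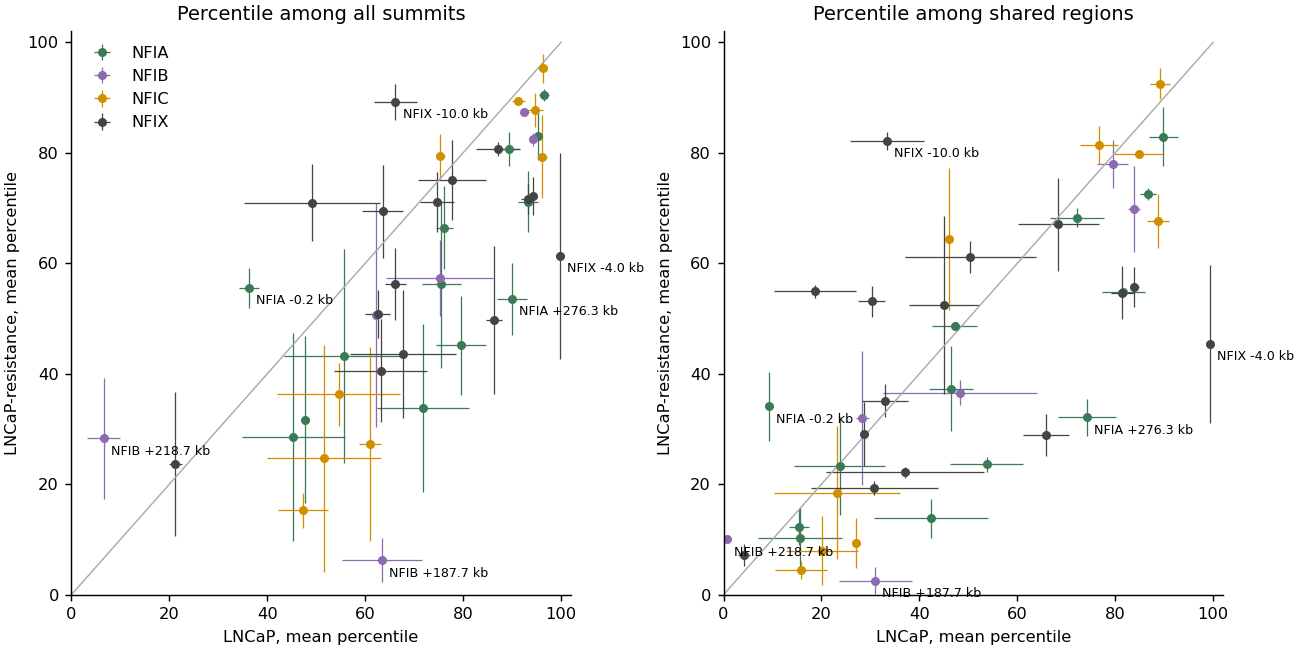
Mean percentile in LNCaP (horizontal) and LNCaP-resistance (vertical) of the 43 shared regions, ranked among all summits (left) and among the shared regions (right), with lines from one replicate to the other. Points under the diagonal are lower in LNCaP-resistance. The median change is -12.2 on the left and -5.00 on the right, and the region 10.0 kb before NFIX stands above the diagonal in both.

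Promoters were described by the strongest summit within 1 kb of any annotated start, with 0 for none. NFIB had the highest values, at 91.5 and 93.4 in LNCaP and 87.4 and 87.3 in LNCaP-resistance. NFIA was at 74.4 and 77.8 against 74.0 and 58.9. NFIC was at 63.2 and 58.7 against 44.8 and 9.77.
NFIX had the lowest values, at 38.6 and 34.96 in LNCaP and 39.2 and 0.767 in LNCaP-resistance. In the LNCaP libraries the order was NFIB, NFIA, NFIC and NFIX, and no library of 1 gene overlapped those of the next. In LNCaP-resistance NFIB remained above the others in both libraries, NFIA was second, and NFIC and NFIX overlapped. Of all 19 starts, 14 had a summit within 1 kb in at least 1 library and 9 had one in all 4. The first starts of NFIB and NFIX had none in any library, although the NFIX sequence printed above is rich in CpG.

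The promoter value was lower in both resistant libraries at 3 of the 4 genes, against 21.7% of 14989 promoters with a summit in any library. Both resistant libraries were higher at none of them, against 28.1% of those promoters. This measure takes the strongest summit over all starts of a gene, and single starts could differ. At NFIB the change was 31.1 at the fifth and sixth starts, with both resistant libraries higher, and -45.2 at the third. The 31.1 sets LNCaP summits of the region 218.7 kb into NFIB against resistant summits of the region at 217.4 kb. The region at 218.7 kb alone changed by 21.7. The changes were -9.69 at NFIA, -5.15 at NFIB, -33.7 at NFIC and -16.8 at NFIX, where the groups overlapped. Their median was -13.2, against 0.495 over those promoters. Within repeat number 1 the changes were -0.466, -4.14, -18.4 and 0.685 in the same order, and within repeat number 2 they were -18.9, -6.16, -48.9 and -34.2. The lower values at NFIA and NFIX thus rested on LNCaP-resistance replicate 2, the shortest list, and at NFIX the change was 2.48 without it. With equal numbers of summits per library all 4 changes were positive, at 18.2, 2.45, 7.85 and 3.19, against a median of 15.9 over the 13907 promoters with a summit on that scale. NFIX then had no promoter summit in either LNCaP list, so its LNCaP values were 0. Among shared regions the change at the NFIC promoter was -17.6, with both resistant libraries lower, and the groups overlapped at NFIA and NFIB, against a median of 8.69 over 11543 promoters. NFIX had no promoter summit in a shared region and so no value on that scale. The direction of the promoter changes thus depended on the scale.

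The genes with the most similar promoter percentiles over the 4 libraries, by Euclidean distance among all protein-coding genes, were ZNF717, BCKDK and LETM2 for NFIA, at distances of 1.84, 2.93 and 3.25 percentile points. For NFIB they included HDAC11 and AMER1, at 1.04 and 2.198. NFIC was nearest to TEX55, SUSD4 and LMX1A, at 9.41, 9.59 and 10.7, and NFIX to ITGAX, HRURF and RAPGEF4, at 5.37, 5.97 and 6.71. Within 10 percentile points there were 134 genes for NFIA, 1820 for NFIB, 2 for NFIC and 8 for NFIX.

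Partners and targets of NFI factors were described in the same way. FOXA1, a pioneer factor that opens chromatin for other factors, was at 38.5 and 52.0 in LNCaP and at 87.6 and 86.0 in LNCaP-resistance, a change of 41.5 with a pooled SD of 6.78. SOX9, a transcription factor of progenitor cells, was at 54.4 and 67.1 against 92.7 and 83.8. POU2F1, the octamer-binding factor OCT1, was at 66.1 and 76.7 against 77.8 and 87.7.
Both resistant libraries were above both LNCaP libraries at these 3 of 7 genes, against 28.1% of the 14989 promoters with a summit in any library. Of the 7 genes, FABP7 and GFAP had no summit and so could not be counted among such promoters. The direction at FOXA1, SOX9 and POU2F1 was the same with equal numbers of summits and among shared regions, where the change at FOXA1 was 83.3 and 62.6. With equal numbers, no LNCaP summit of FOXA1 stayed in the lists, so the 83.3 sets the resistant mean against 0. SOX9 likewise had a value of 0 in LNCaP replicate 1 on that scale. At SKI, a transcriptional co-repressor, and EZH2, the histone methyltransferase of Polycomb repressive complex 2, the groups overlapped among all summits, and both resistant libraries were higher on the other scales. On those scales both resistant libraries were higher at 5 of the 7 genes, which are all those with a summit. The shares over promoters with a summit were 66.0% with equal numbers of summits and 54.0% among shared regions. The glial genes FABP7 and GFAP had no summit in any library. For SKI, SOX9 and GFAP both ends of the gene were used because no annotated start was available.

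**Figure D5:**
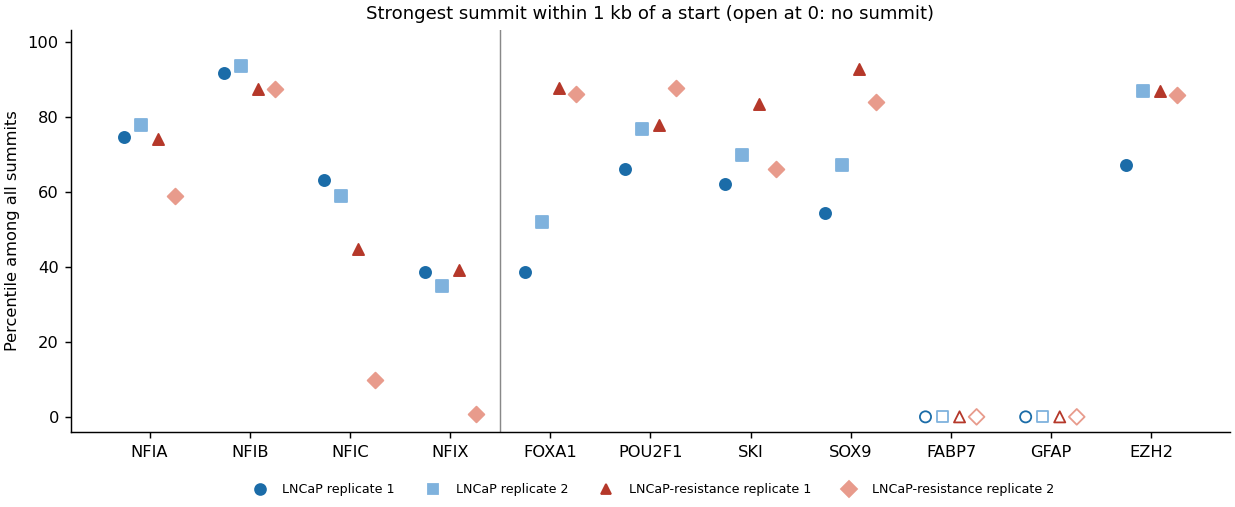
Percentile of the strongest promoter summit, 1 point per library, for the 4 NFI genes (left of the line) and 7 partners and targets (right), with open points at 0 where no summit was listed. NFIC shows 63.2 and 58.7 in LNCaP and 44.8 and 9.77 in LNCaP-resistance, and FOXA1 shows 38.5 and 52.0 against 87.6 and 86.0.

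Among the 4 protein-coding neighbours that reach into the NFIC window, FZR1, an activator of the anaphase-promoting complex, was lower in both resistant libraries by 1.94. DOHH, which hydroxylates deoxyhypusine in the translation factor eIF5A, overlapped at 76.2 and 74.5 against 75.3 and 83.4. SMIM44 had a summit in the resistant libraries alone, and SMIM24 had none. Of the 6 neighbours of NFIX described here, STX10, a syntaxin of vesicle fusion, was lower in both resistant libraries, at 85.3 and 81.7 against 72.1 and 70.7, and NACC1, a transcriptional regulator, was higher in both. GADD45GIP1 and TRMT1 overlapped, and DAND5 and LYL1 had no summit. No other protein-coding gene reached into the windows of NFIA and NFIB.

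The windows' edges were not always empty. The nearest summit inside an edge lay between 272 and 35237 bp from it, and the nearest summit outside lay between 1225 and 26163 bp from it. The strongest of those just outside, at percentile 85.9 in LNCaP-resistance replicate 1, was 4498 bp beyond the 3′ edge of the NFIB window.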

How the data were processed

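ATAC-seq summit lists of 2 LNCaP and 2 LNCaP-resistance libraries were grouped by their labels. The submitters' processing notes name Bowtie2 2.2.5, SAMtools 1.6, MACS2 2.2.6, deepTools 3.5.2, HOMER 4.11 and hg38. The authors called peaks per library and deposited a score per summit that reads as the −log10 of a p-value or of a q-value, and which of these is not given in the sources used here. Scores served only to rank summits within a list. Read counts are not part of the lists, and the depth and its precision are unknown.

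Gene extents and starts came from RefSeq tables of GRCh38.p14, with starts for 15842 protein-coding genes and gene ends for 4191. Promoter sequences came from a RefSeq table of the same build. Exons, introns and sequences of other regions were not analysed here. Python 3.11.15, numpy 2.4.6, pandas 2.3.3 and matplotlib 3.10.9 were used, and the region and percentile steps were tested on simulated lists. No test between groups was made, because presence and rank chose the members. The members and gene lists were chosen with earlier results of these data known. Named were the members, protein-coding genes overlapping a window, lists of partners, targets and markers, the 3 genes nearest in promoter percentiles, and in each window the strongest region of each class and the shared regions of largest change in each direction whose groups did not overlap. Some genes that these rules select are not reported here. Other regions are named where a result turns on them. The labels give the repeat number as a batch, but whether same-numbered libraries of the 2 groups were handled together is not known here. The deviations of same-numbered libraries from their group means had a correlation of -0.0121 over 31833 shared regions. Alternatives were equal numbers of summits (the 45618 highest of each list), summit windows of 100 and 500 bp, scores of 10 or more, gene bodies alone, flanks of 10 kb, membership by at least 1 library, 1 summit per 500 bp, a promoter distance of 3 kb, percentiles among shared regions and leaving out each library. Those for single regions and genes were added after seeing the data.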

Additional observations from a re-analysis of the deposited data

How the results depend on the processing

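With equal numbers of summits per library, the ratio of summits in the 4 windows was 1.27 in place of 0.715, LNCaP-specific regions numbered 9 in place of 22, resistance-specific regions 18 in place of 7, and the median promoter change was 5.52 in place of -13.2. All 4 promoter changes, and that of the region 0.4 kb before NFIC (7.85), then had the other sign, at 18.2 for NFIA, 2.45 for NFIB, 7.85 for NFIC and 3.19 for NFIX. Among shared regions the NFIA promoter change was 1.42, the median over the 3 members with a value was -1.46, and NFIX had none. The NFIX change was 3.71 with a score of at least 10 and 2.48 without LNCaP-resistance replicate 2. The latter compares LNCaP and resistant summits at different sites, as does the NFIX change of -16.8 over all libraries. A score of at least 10 left 22 shared and 12 LNCaP-specific regions. Gene bodies alone held 25 shared regions and flanks of 10 kb held 28, in place of 43, since fewer bases were searched. Membership by at least 1 library gave 75 shared, 50 LNCaP-specific and 22 resistance-specific regions, as the rule asks for less.

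Leaving out 1 library at a time, the ratio ranged from 0.544 to 0.886, shared regions from 44 to 63, LNCaP-specific regions from 23 to 43, resistance-specific regions from 8 to 21 and the median promoter change from -26.6 to -3.64. The ratio and the promoter change were lowest without LNCaP-resistance replicate 1 and highest without LNCaP-resistance replicate 2. Resistance-specific regions numbered 21 without LNCaP-resistance replicate 2 and 13 without LNCaP replicate 1, and LNCaP-specific regions numbered 43 without LNCaP replicate 2 or without LNCaP-resistance replicate 1. Each class asks for less of a region when 1 library is left out. Apart from changes in how windows join, the counts of regions could therefore only stay or rise. Taking the repeat number as a block gave 0.705 for the ratio and -13.2 for the promoter median. Windows of 100 and 500 bp kept each count of regions within 1.5 times the reported one. The mean percentile of the region 15.3 kb before NFIC in LNCaP-resistance stayed between 94.4 and 98.3. Of 120 values of single genes or regions under these settings, 88 moved by less than the replicate SD, and 8 of 78 percentile changes changed sign. Percentile values with 1 library left out were bound to stay within that SD by how it is computed. The count of 88 is therefore not a measure of stability. The depth of the libraries is unknown, so a missing summit cannot be told apart from a peak below the caller's threshold.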
